A study of Mus musculus with 12 samples.

Results

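The 38 genes described here encode enzymes of antioxidant defense, of glutathione metabolism, and of NADPH supply, together with NRF2 and KEAP1. They were chosen by symbol, from a list, and all 38 were found among the 49585 genes that were counted in the adrenal cortex. RNA-seq had been performed on 12 male C57BL/6J mice, 4 in each of 3 groups, after 20 weeks of feeding that began at 6 weeks of age. The LFD group received a diet with 10% of its energy as fat, the HFD group received a diet with 60% of its energy as fat, and the third group received the HFD with icosapent ethyl, an ethyl ester of the omega-3 fatty acid eicosapentaenoic acid, in the last 10 weeks. The labels call the LFD a normal diet and give the genotype Fads2-/- for all 12 mice, whereas the study's methods describe wild-type animals. The paper also reports higher *Fads2* RNA in HFD than in LFD mice from this RNA-seq. The *Fads2* counts were not examined here to settle the conflict. C57BL/6J mice carry a deletion within *Nnt*, which all groups share. Each mouse gave 1 library, so that errors and p-values describe the spread between mice.

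Cells remove hydrogen peroxide and lipid peroxides with glutathione peroxidases, which use reduced glutathione, and with peroxiredoxins, most but not all of which are recharged by thioredoxin. Both systems draw their electrons from NADPH through glutathione reductase and thioredoxin reductases, whereas superoxide dismutases convert superoxide into hydrogen peroxide. NRF2 (*Nfe2l2*) is the transcription factor that switches on many of these genes when its inhibitor KEAP1 is modified by oxidants or electrophiles. In the adrenal cortex, the mitochondrial and microsomal cytochrome P450 enzymes that make steroids use NADPH and release reactive oxygen, and mice without functional NNT, a mitochondrial NADPH source, make less corticosterone.

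Total counts ranged from 34785979 to 67295963 per mouse. All 10 markers of steroidogenic cortex were detected, and levels are given as CPM (counts relative to the size of the library). These markers summed to between 45750 and 76770 CPM in LFD mice and between 60460 and 107800 CPM in HFD mice. In icosapent ethyl–treated mice, the sum was between 63120 and 99760 CPM. The 2 markers of the X-zone, an inner zone of the cortex in young mice, summed to 0.122 CPM or less in every mouse. Several libraries stood apart. The early response gene *Fos* was between 316 and 426 CPM in HFD replicates 1 and 2 and icosapent ethyl replicates 1 and 2, and 28.1 CPM or less in the other 8 mice. The 10 early response markers, which include *Fos*, did not share a direction. In HFD against LFD mice, 6 had positive and 4 had negative log2 fold changes, from −1.16 to 4.35. Their sums overlapped, at 728 to 3755 CPM in LFD, 1330 to 6251 CPM in HFD, and 1528 to 5424 CPM in icosapent ethyl–treated mice. The 12 markers of chromaffin cells, which belong to the adrenal medulla, summed to between 6308 and 22220 CPM in LFD mice, between 3053 and 9870 CPM in HFD mice, and between 5443 and 10760 CPM in icosapent ethyl–treated mice. The 12 macrophage markers summed to between 762 and 1171 CPM in LFD mice, between 536 and 649 CPM in HFD mice, and between 583 and 726 CPM in icosapent ethyl–treated mice. The 12 adipocyte markers summed to between 302 and 461 CPM in LFD, 484 and 573 CPM in HFD, and 394 and 540 CPM in icosapent ethyl–treated mice. These markers did not share a direction. In HFD against LFD mice, 9 had positive and 3 had negative log2 fold changes, from −2.14 to 3.19.

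Levels of the genes were first compared within mice, per kilobase of exon. In LFD mice, the highest was *Prdx3*, the mitochondrial peroxiredoxin, at 450 CPM per kilobase, followed by the glutathione transferase *Gstm1* at 417 and the sulfiredoxin *Srxn1* at 398. *Prdx3* was also highest in HFD mice at 640 and in icosapent ethyl–treated mice at 586 CPM per kilobase. The lowest in all 3 groups was the cytosolic glutaredoxin *Glrx*, at 2.58, 1.76, and 1.89 CPM per kilobase in LFD, HFD, and icosapent ethyl–treated mice. Reads that map to several places were discarded in the counting, so that levels of genes with near-identical relatives or pseudogenes, such as *Gstm1*, *Gstm2*, *Gstp1*, *Gpx1*, and *Prdx1*, may be too low. All other levels below are CPM, scaled by the trimmed mean of M values (TMM), and are not comparable between genes.

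**Figure D1:**
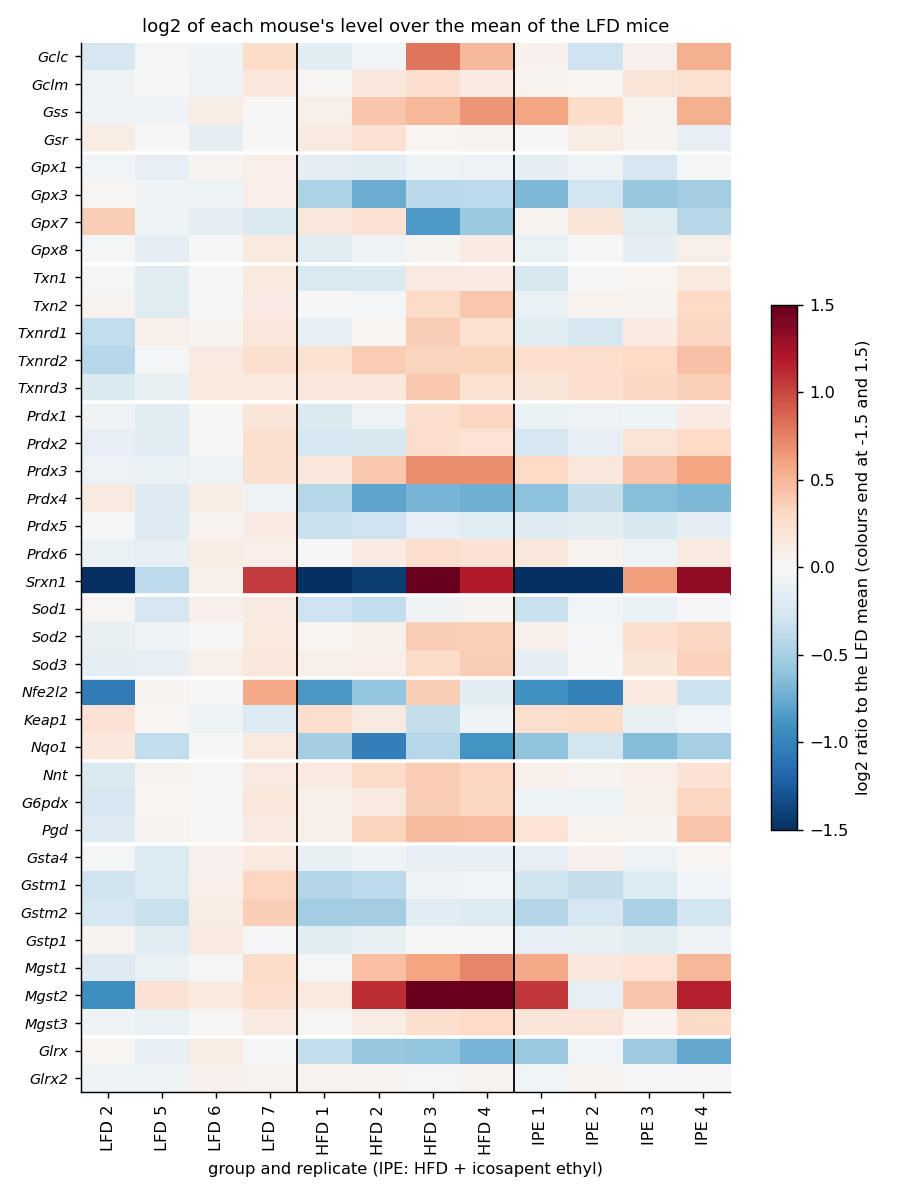
Level of each of the 38 genes (rows, ordered by role) in each of the 12 mice (columns), as the log2 of its CPM over the mean of the 4 LFD mice. *Gpx3* and *Prdx4* are below the LFD mean in all 8 mice on the HFD, and *Srxn1* is far below it in LFD replicate 2, HFD replicates 1 and 2, and icosapent ethyl replicates 1 and 2.

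The first question was which of these genes differed between HFD and LFD mice. *Gpx3*, which encodes a secreted selenium-dependent glutathione peroxidase, and *Prdx4*, which encodes the peroxiredoxin of the endoplasmic reticulum, fell in HFD mice. None of the 38 genes rose past the threshold, set at 0.05 for the p-value of the quasi-likelihood test in edgeR, adjusted over all genes after Benjamini and Hochberg. The 2 genes were 5.26% of the 38, and 1.45% of the 15909 genes tested passed the threshold in either direction, with 0.471% lower. These were 155 higher and 75 lower genes, or 40 and 44 when library totals replaced the scaling. At an adjusted p below 0.1, 7 of the 38 genes passed (18.4%), against 8.77% of all genes.

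*Gpx3* (ENSMUSG00000018339) lies on chromosome 11 of GRCm38 from 54902453 to 54910377, on the plus strand. Its level was 147, 141, 139, and 157 CPM in LFD replicates 2, 5, 6, and 7. In HFD replicates 1 to 4, it was 105, 86.8, 110, and 111 CPM. The groups did not overlap, with means of 146 ± 8.11 CPM in LFD mice and 103 ± 11.4 CPM in HFD mice (SD, n = 4), and the log2 fold change was −0.51 ± 0.0935 (SE, adjusted p = 0.0437 by edgeR).

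*Prdx4* (ENSMUSG00000025289) lies on the X chromosome of GRCm38 from 155323918 to 155340754, on the minus strand. Its level was 41.1, 32.7, 40.3, and 35.7 CPM in LFD replicates 2, 5, 6, and 7. It was 27.8, 21.6, 23.2, and 22.5 CPM in HFD replicates 1 to 4. Every HFD mouse was again below every LFD mouse, with means of 37.5 ± 3.96 and 23.8 ± 2.78 CPM (SD, n = 4), and the log2 fold change was −0.67 ± 0.122 (SE, adjusted p = 0.0437 by edgeR).

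Both calls depended on which libraries were in the fit, as did the calls over all genes. Leaving out HFD replicate 1 kept them (adjusted p = 0.0368 for *Gpx3* and 0.0229 for *Prdx4*, by edgeR) and added *Glrx*, *Gss*, *Mgst1*, *Mgst2*, *Pgd*, and *Prdx3*, which made 8 genes (21.1%, against 5.7% of all genes). The same 8 passed without HFD replicates 1 and 2, the HFD mice with high *Fos* (21.1%, against 6.34%). Without any one of HFD replicates 2, 3, and 4 and LFD replicates 2, 5, 6, and 7, 0 of the 38 passed by edgeR. In these fits, 10 to 14 of the 38 had an unadjusted p below 0.05. The share of all genes at that cutoff is not given for them, and it was 24.8% with no mouse left out. Of the whole table, 78 genes (0.487%) passed without LFD replicate 2, and 0 genes passed in each of the other fits of this kind. The log2 fold changes stayed between −0.54 and −0.43 for *Gpx3* and between −0.75 and −0.61 for *Prdx4*. DESeq2 called 7 of the 38 (18.4%, against 11.5% of the genes it tested), which were *Gpx3*, *Prdx4*, *Glrx*, *Nqo1*, *Prdx3*, *Gss*, and *Mgst2*.

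Markers of other cell types differed along with both genes, and in bulk tissue fewer cells of a type and less RNA per cell cannot be told apart. All 12 chromaffin markers had negative log2 fold changes in HFD against LFD mice (median −1.27), but none passed the threshold. Of the 12 macrophage markers, 9 had negative and 3 had positive log2 fold changes, from −3.80 to 0.24. Past the threshold were 5 of these 12, all lower (41.7%, against 1.45% of all genes). No marker on either list was below 1 CPM in every mouse. All 10 markers of steroidogenic cortex had positive log2 fold changes (median 0.52), and none passed the threshold. They were not used as a covariate. With the chromaffin markers as a covariate, the log2 fold change was −0.49 for *Gpx3* and −0.46 for *Prdx4* (adjusted p = 0.403 and 0.435 by edgeR). With the macrophage markers it was −0.46 and −0.90 (adjusted p = 0.401 and 0.373 by edgeR). The standard errors were 0.211 and 0.257 with the macrophage covariate, against 0.130 and 0.135 with the chromaffin covariate. The macrophage sums did not overlap between LFD and HFD mice, so that this fit can hardly separate these markers from the diet. With either covariate 0 genes of the whole table passed, and 4 and 5 of the 38 genes had an unadjusted p below 0.05. With early response genes as a covariate, the values were −0.46 and −0.63 (adjusted p = 0.0706 and 0.0788 by edgeR). With the adipocyte markers as a covariate, both genes passed, at −0.46 and −0.76 (adjusted p = 0.0267 and 0.0205 by edgeR), and they were among 8 of the 38 genes that did (21.1%, against 14.4% of all genes).

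Other peroxidases did not pass the test. The remaining members of the glutathione peroxidase group had log2 fold changes of −0.12 ± 0.0745 for *Gpx1*, which is cytosolic and mitochondrial, and −0.20 ± 0.273 and −0.02 ± 0.0877 (SE) for *Gpx7* and *Gpx8*, which act in the endoplasmic reticulum. The 4 glutathione peroxidases of the list had negative values when scaled by TMM, by DESeq2's size factors, or by library totals. *Gpx3* alone passed with TMM and library totals, and none passed with DESeq2's size factors (adjusted p = 0.0513 for *Gpx3* by edgeR). Of the peroxiredoxins, the cytosolic *Prdx1*, *Prdx2*, and *Prdx6* and *Prdx5*, found in mitochondria and peroxisomes, had log2 fold changes from −0.24 to 0.15, and the lowest adjusted p among them was 0.143 for *Prdx5* by edgeR.

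Among peroxiredoxins, *Prdx3* had the largest positive value. It was 627, 620, 629, and 783 CPM in LFD replicates 2, 5, 6, and 7 and 742, 881, 1078, and 1081 CPM in HFD replicates 1 to 4. The groups overlapped in 1 mouse each, LFD replicate 7 and HFD replicate 1. The log2 fold change was 0.50 ± 0.137 (SE, adjusted p = 0.0852 by edgeR).

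**Figure D2:**
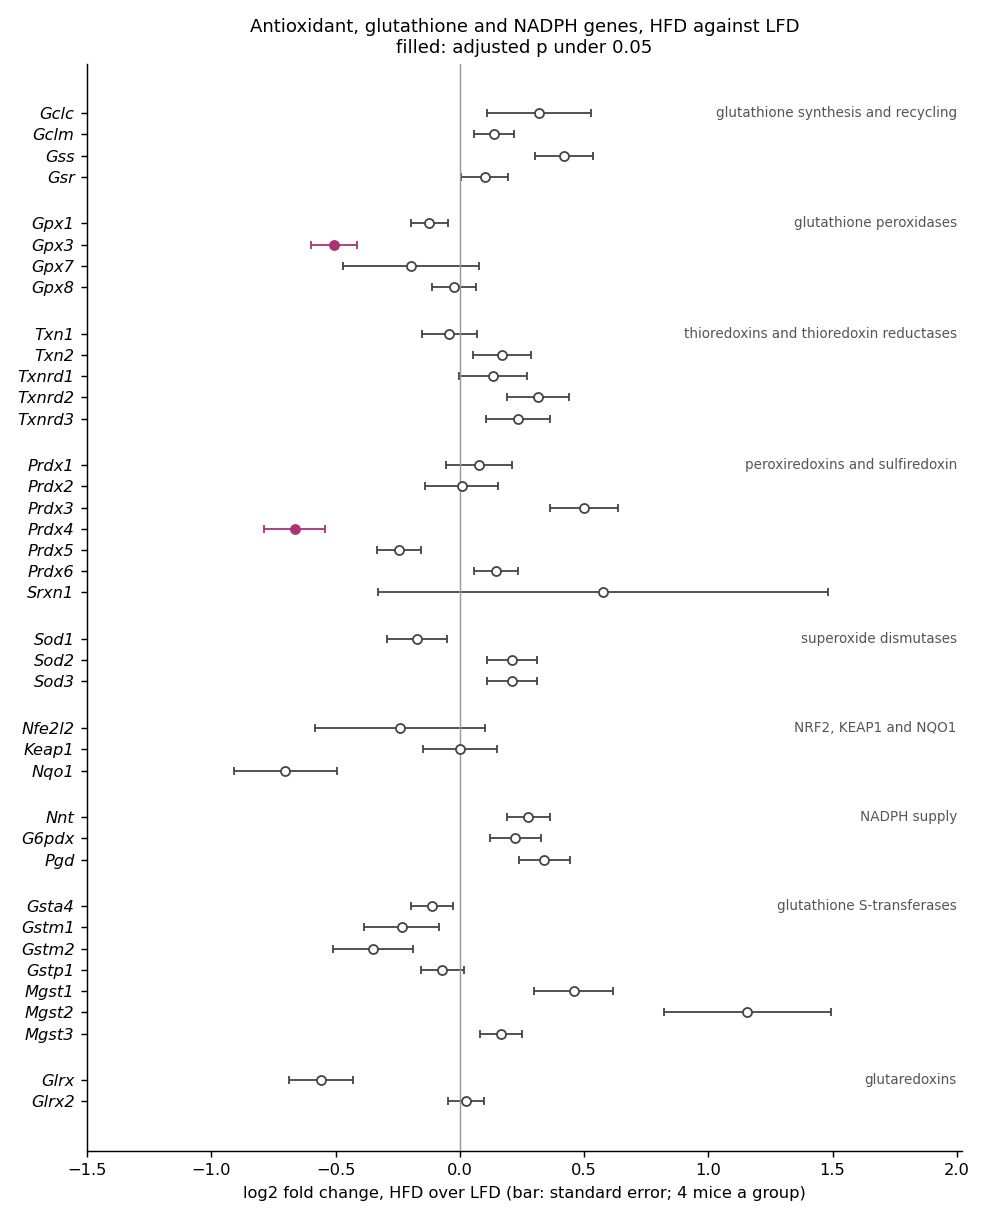
Log2 fold change of each of the 38 genes in HFD over LFD mice (horizontal axis), with its standard error as the bar, grouped by role. Filled points passed the threshold, and these are *Gpx3* at −0.51 and *Prdx4* at −0.67. *Mgst2* has the largest positive value, 1.16, and *Srxn1* has the widest error, 0.905.

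Glutathione is made in successive steps by glutamate cysteine ligase (*Gclc* and its modifier *Gclm*) and glutathione synthetase (*Gss*), and it is returned to its reduced form by glutathione reductase (*Gsr*). All 4 had positive log2 fold changes, from 0.10 to 0.42 with TMM and also above 0 with both other scalings, and none passed the threshold. *Gss* was 58.4, 59.2, 66.3, and 61.2 CPM in LFD replicates 2, 5, 6, and 7 and 64.9, 81.7, 86.6, and 96.9 CPM in HFD replicates 1 to 4. Only HFD replicate 1 fell within the LFD range, and the log2 fold change was 0.42 ± 0.117 (SE, adjusted p = 0.0876 by edgeR). *Gclc*, the catalytic and rate-limiting subunit, differed by 0.32 ± 0.21 (SE) on the log2 scale, which did not pass (adjusted p = 0.375 by edgeR).

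NADPH is supplied by the pentose phosphate enzymes *G6pdx* and *Pgd* in the cytosol and by the transhydrogenase *Nnt* in mitochondria. The 3 genes had log2 fold changes of 0.22, 0.34, and 0.28, positive under each scaling, and none passed the threshold (adjusted p = 0.217, 0.101, and 0.112 by edgeR). *Nnt* (ENSMUSG00000025453) spans positions 119335448 to 119408997 of chromosome 13 of GRCm38, on the minus strand. It was 89.4, 107, 105, and 114.7 CPM in LFD replicates 2, 5, 6, and 7, and 114.5, 127, 135, and 130 CPM in HFD replicates 1 to 4. In icosapent ethyl replicates 1 to 4, it was 110, 107, 112, and 121 CPM. LFD and HFD mice overlapped only because LFD replicate 7 was just above HFD replicate 1, and the log2 fold change had an SE of 0.0878. Counts for the whole gene, between 4074 and 7516 per mouse, show that its RNA was present, but they do not show which exons were read, and the deletion was therefore not examined.

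The thioredoxin system passes electrons from NADPH to most peroxiredoxins. None of its 5 genes passed the threshold. *Txnrd2* and *Txn2*, the mitochondrial reductase and thioredoxin, had log2 fold changes of 0.32 ± 0.125 and 0.17 ± 0.117, and their cytosolic counterparts *Txnrd1* and *Txn1* had 0.13 ± 0.136 and −0.04 ± 0.111 (SE). *Txnrd3*, the thioredoxin glutathione reductase, was between 11.5 and 14.88 CPM in LFD mice and between 14.93 and 17.7 CPM in HFD mice. The groups barely missed overlap, the log2 fold change was 0.23 ± 0.129 (SE), and the adjusted p was 0.29 by edgeR.

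Among superoxide dismutases, the log2 fold changes were −0.17 for *Sod1* (cytosol), 0.21 for *Sod2* (mitochondria), and 0.21 for *Sod3* (secreted), with adjusted p from 0.226 to 0.409 by edgeR. The glutaredoxins reduce proteins bound to glutathione. *Glrx* was 14.4, 13.1, 15.3, and 13.9 CPM in LFD replicates 2, 5, 6, and 7 and 11.0, 9.54, 9.44, and 8.75 CPM in HFD replicates 1 to 4. The groups did not overlap, and the log2 fold change was −0.56 ± 0.128 (SE, adjusted p = 0.0609 by edgeR). *Glrx2*, found in mitochondria and the nucleus, had a log2 fold change of 0.02 ± 0.0731 (SE), and it varied least of the 38 genes, with a highest level 1.09 times the lowest over the 12 mice.

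Of the glutathione transferases, *Mgst2*, a membrane enzyme that can also make leukotriene C4, differed the most. It was 5.98, 13.1, 12.4, and 13.6 CPM in LFD replicates 2, 5, 6, and 7 and 12.5, 24.3, 31.8, and 32.3 CPM in HFD replicates 1 to 4. HFD replicate 1 lay within the LFD range, whereas the other 3 HFD mice were above all LFD mice. The log2 fold change was 1.16 ± 0.335 (SE, adjusted p = 0.0933 by edgeR). The related membrane transferases *Mgst1* and *Mgst3* had values of 0.46 ± 0.159 and 0.16 ± 0.0854, and the soluble transferases *Gsta4*, *Gstm1*, *Gstm2*, and *Gstp1* had negative values from −0.35 to −0.07. None of these 6 passed the threshold.

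NRF2 and KEAP1 RNA did not pass the test, with adjusted p of 0.706 for *Nfe2l2* and 1 for *Keap1* by edgeR. *Nqo1*, a quinone reductase often used to read NRF2 activity, was 6.77, 4.69, 6.1, and 6.73 CPM in LFD replicates 2, 5, 6, and 7, and 4.28, 2.98, 4.5, and 3.26 CPM in HFD replicates 1 to 4. It was low in this tissue, at 144 to 360 counts per mouse, and every HFD mouse was below every LFD mouse. The log2 fold change was −0.70 ± 0.207 (SE, adjusted p = 0.0951 by edgeR). The value of *Nqo1* was not shared by most classical NRF2 targets. In a list of 14 such targets, 11 had positive and 3 had negative log2 fold changes, with a median of 0.18. None of the 14 passed the threshold, and 7675 of the 15909 genes tested had positive values.

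**Figure D3:**
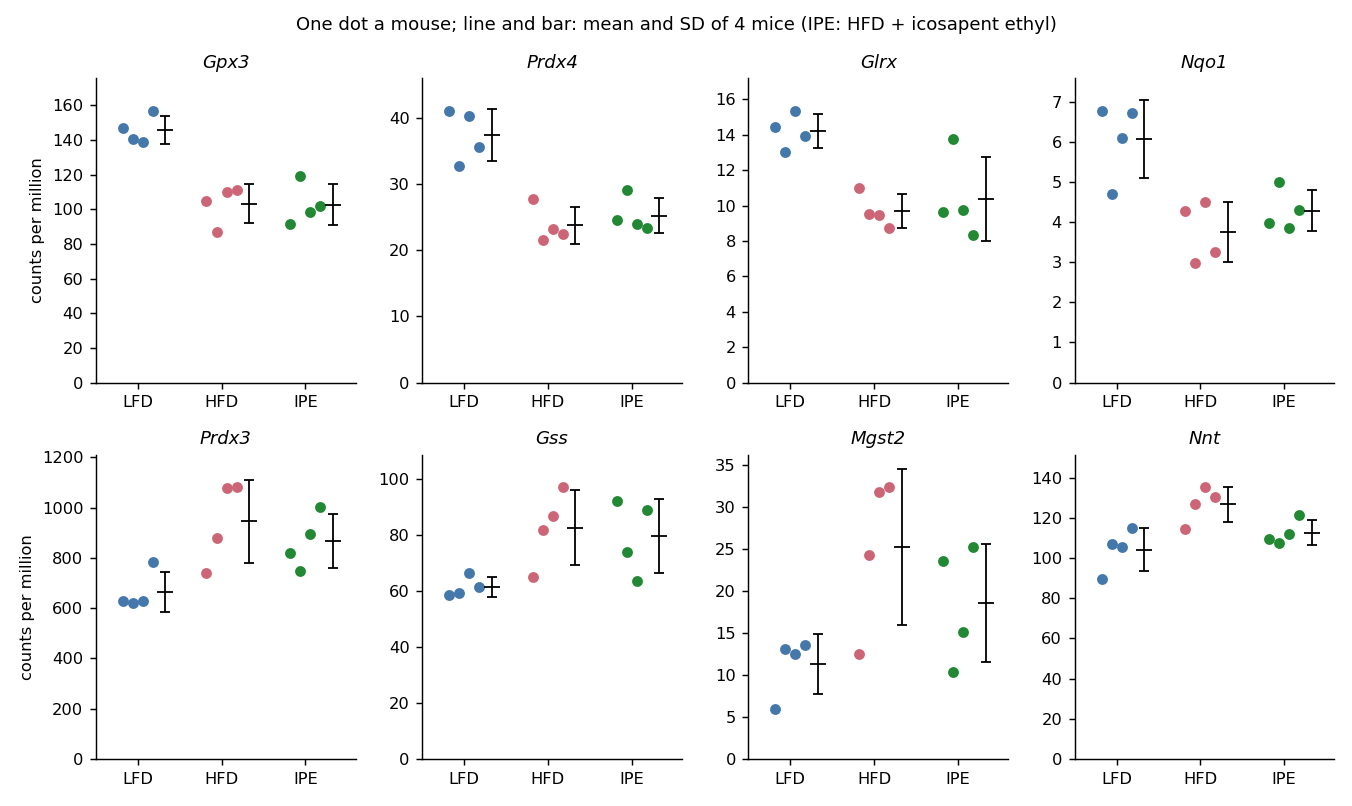
CPM of 8 genes in each mouse (dots), with the mean and SD of the 4 mice beside them. *Gpx3*, *Prdx4*, *Glrx*, and *Nqo1* do not overlap between LFD and HFD mice, *Prdx3*, *Gss*, *Mgst2*, and *Nnt* do, and the icosapent ethyl–treated mice (IPE) overlap the HFD mice in all 8.

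Across the 38 genes, 23 had positive and 15 had negative log2 fold changes, with a median of 0.09, against a median of −0.01 over all genes tested. With library totals, which moved the median of all genes to −0.11, the split was 19 to 19, and *Prdx1*, *Prdx2*, *Keap1*, and *Glrx2* turned negative. At an unadjusted p below 0.05, 12 of the 38 genes differed, 7 higher and 5 lower (31.6%, against 24.8% of all genes). Ranges of HFD and LFD mice were separate for 5 genes, namely, *Gpx3*, *Prdx4*, *Glrx*, and *Nqo1*, which were lower, and *Txnrd3*, which was higher (13.2%, against 13.5% of all genes). The share of genes without overlap was thus close to that of the whole table.

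The genes were also arranged by where their products act, a grouping made after their values were seen and therefore given without a test. The 6 genes whose products act mainly in mitochondria (*Prdx3*, *Txn2*, *Txnrd2*, *Sod2*, *Nnt*, and *Glrx2*) had positive log2 fold changes, with a median of 0.24. *Gpx1* and *Prdx5*, whose products are found in mitochondria as well as elsewhere and which were not placed in this group, had negative values of −0.12 and −0.24, so that the genes of mitochondrial enzymes did not all share a direction. With library totals, 5 of the 6 were positive, and *Glrx2* was at −0.07. Of the 5 genes whose products act in the secretory pathway or outside cells, *Gpx3*, *Prdx4*, *Gpx7*, and *Gpx8* had negative values, with a median of −0.20 for the 5, and *Sod3* had a positive value of 0.21. In each of the 3 scalings, 4 of these 5 were negative.

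Other genes of the same pathways were read from lists of 107 genes, of which 103 were tested, and 3 passed the threshold (2.91%, against 1.45% of all genes). *Gstt1*, a cytosolic glutathione transferase, fell from 48.1 to 64.7 CPM in LFD mice to 35.6 to 39.4 CPM in HFD mice (log2 fold change −0.63, adjusted p = 0.0376 by edgeR). *Blvrb*, which reduces biliverdin and flavins, fell from 31.3 to 36.0 CPM in LFD mice to 19.0 to 24.9 CPM in HFD mice (−0.55, adjusted p = 0.048 by edgeR). *Sephs2*, which makes the selenophosphate needed for selenoproteins such as GPX3, rose from 29.8 to 36.5 CPM in LFD mice to 46.0 to 57.2 CPM in HFD mice (0.60, adjusted p = 0.0406 by edgeR).

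The groups overlapped in none of these 3 genes. Ranges were separate for 17 of the 103 pathway genes (16.5%), close to the 13.5% of all genes. Without HFD replicate 1 all 3 passed, and without LFD replicate 2 *Sephs2* alone of them passed. Without any one of the other 6 mice none of them did, nor did any other gene of the whole table. *Blvrb* did not pass with DESeq2's size factors (adjusted p = 0.0545 by edgeR), library totals (0.0575), or no filter (0.0517), and *Sephs2* did not pass with library totals (0.107). None of the 3 passed with the chromaffin, macrophage, or early response covariate, and with the macrophage covariate the log2 fold change of *Sephs2* was 0.23 (adjusted p = 0.576 by edgeR).

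Further enzymes of peroxide removal and NADPH supply did not pass by edgeR with all 8 mice. Catalase (*Cat*) had a log2 fold change of 0.61 ± 0.14 with adjusted p = 0.0612, and *Hmox1*, the inducible heme oxygenase, had 1.43 ± 0.389 with adjusted p = 0.0844 by edgeR. *Idh1* and *Me1*, cytosolic NADPH sources, had 0.50 ± 0.13 and 0.46 ± 0.143, with adjusted p of 0.0765 and 0.105 by edgeR. For *Idh1*, the HFD range of 556 to 732 CPM lay above the LFD range of 364 to 548 CPM. *Gpx4*, which reduces lipid peroxides in membranes, had 0.10 ± 0.137, mitochondrial *Idh2* had −0.14 ± 0.0958, and *Txnip*, a thioredoxin inhibitor, had −0.56 ± 0.354 (SE). By DESeq2, *Cat*, *Hmox1*, and *Idh1* passed (adjusted p = 0.0101, 0.00649, and 0.0268), and the same 3 passed by edgeR without HFD replicate 1 (adjusted p = 0.0174, 0.0324, and 0.04001). The value of *Gpx4* turned to −0.01 with library totals.

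Of the 18 other NADPH supply genes, 13 had positive log2 fold changes, and 8 did with library totals. The list of other NRF2 regulators and targets held 34 genes, 2 of which (*G6pdx* and *Pgd*) are among the 38. Of the remaining 32, all tested, 17 had positive values under TMM and 15 with library totals.

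The second question was whether these genes differed with icosapent ethyl in mice on the HFD, a comparison that shares the HFD mice with the first. None of the 38 passed the threshold in icosapent ethyl–treated against HFD mice by edgeR, nor did any of the 15913 genes tested (0.0%). By DESeq2, 0 of the 38 and 7 genes of the whole table passed. At an unadjusted p below 0.05 it was 0 of the 38, against 1.39% of all genes, and the groups overlapped in all 38, against 1.14% of genes without overlap. The log2 fold changes ran from −0.44 for *Mgst2* to 0.19 for *Nqo1*, with a median of −0.03. The precision varied by gene, with standard errors of 0.0677 for *Gstp1*, 0.111 for *Gpx3*, 0.12 for *Prdx4*, and 0.997 for *Srxn1*.

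*Gpx3* was 91.5, 119, 98.5, and 102 CPM in icosapent ethyl replicates 1 to 4, and its log2 fold change against HFD was −0.01 ± 0.111 (SE). *Prdx4* was 24.5, 29.1, 24.0, and 23.4 CPM, with a log2 fold change of 0.09 ± 0.12 (SE). In both genes, icosapent ethyl replicate 2 was above all HFD mice and the other 3 lay within their range.

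Of the genes next in line after these in the first comparison, *Prdx3* was 820, 749, 894, and 1002 CPM and *Gss* was 92.1, 73.9, 63.6, and 88.9 CPM in icosapent ethyl replicates 1 to 4. *Mgst2* was 23.6, 10.3, 15.1, and 25.2 CPM, which spans the LFD and HFD ranges. *Glrx* was 9.66, 13.8, 9.75, and 8.32 CPM, and *Nqo1* was 3.98, 5.01, 3.85, and 4.31 CPM. Replicate 2 was the highest of the treated mice in both *Glrx* and *Nqo1*, where it lay above all HFD mice, and the lowest in *Prdx3* and *Mgst2*. All 3 NADPH supply genes had negative values against HFD, −0.16 for *G6pdx*, −0.16 for *Pgd*, and −0.17 ± 0.0768 for *Nnt*, with an unadjusted p of 0.0544 for *Nnt* by edgeR.

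The third comparison set icosapent ethyl–treated against LFD mice, and it shares the LFD mice with the first and the treated mice with the second. None of the 38 genes passed by edgeR, nor did any of the 15935 genes tested (0.0%). At an unadjusted p below 0.05, 9 of the 38 differed (23.7%, against 14.0% of all genes). Ranges were separate for 4 genes (10.5%, against 7.73% of all genes), with *Gpx3* and *Prdx4* lower and *Txnrd2* and *Txnrd3* higher in icosapent ethyl–treated mice. The log2 fold changes were −0.50 ± 0.0958 for *Gpx3* and −0.57 ± 0.115 for *Prdx4* (SE), each with adjusted p = 0.184 by edgeR. DESeq2 called these 2 genes (adjusted p = 0.00337 and 0.00343), and 2.58% of the genes it tested.

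*Srxn1*, which restores overoxidized peroxiredoxins, varied far more between mice than any other gene of the list. Its SD within groups was 1.84 on the log2 scale, against a median of 0.265 over all genes, and it ranked 20 of 15909 genes from the most variable. It was 124, 854, 1179, and 2329 CPM in LFD replicates 2, 5, 6, and 7, 331, 419, 3376, and 2550 CPM in HFD replicates 1 to 4, and 294, 169, 1737, and 2813 CPM in icosapent ethyl replicates 1 to 4. Low and high mice occurred in every group, and the highest was 27.2 times the lowest. The log2 fold change between HFD and LFD mice was 0.58 ± 0.905 (SE, adjusted p = 0.735 by edgeR). Its lowest count was 6402 reads.

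The same 5 mice, LFD replicate 2, HFD replicates 1 and 2, and icosapent ethyl replicates 1 and 2, were also the lowest in *Nfe2l2* and in 2 genes that were chosen after their values were seen. *Nfe2l2* was between 108 and 148 CPM in these mice and 178 CPM or more in the other 7. *Maff*, a small MAF protein that pairs with NRF2, was between 3.74 and 14.3 CPM in them and 80.7 CPM or more in the others. *Slc3a2*, a subunit of the cystine and amino acid transporters, was between 202 and 292 CPM and 434 CPM or more. Of the 38 genes, *Txnrd1* and *Gstm1* were also lowest in these 5 mice, over narrower ranges, at 95.2 CPM or less against 96.4 or more and at 499 CPM or less against 532 or more. *Keap1* and *Gpx7* were highest in the same mice, at 95.3 CPM or more against 88.6 or less and at 8.73 CPM or more against 8.06 or less. *Nqo1* and *Gclm* did not separate these mice from the others. The 5 mice were picked by their *Srxn1* values, and the share of all genes that separate them likewise is not given. The separations can therefore not be read as particular to these genes. Of the 5 mice, 4 were those with high *Fos*, and the remaining one, LFD replicate 2, had *Fos* at 8.2 CPM. What set these mice apart was not tested.

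**Figure D4:**
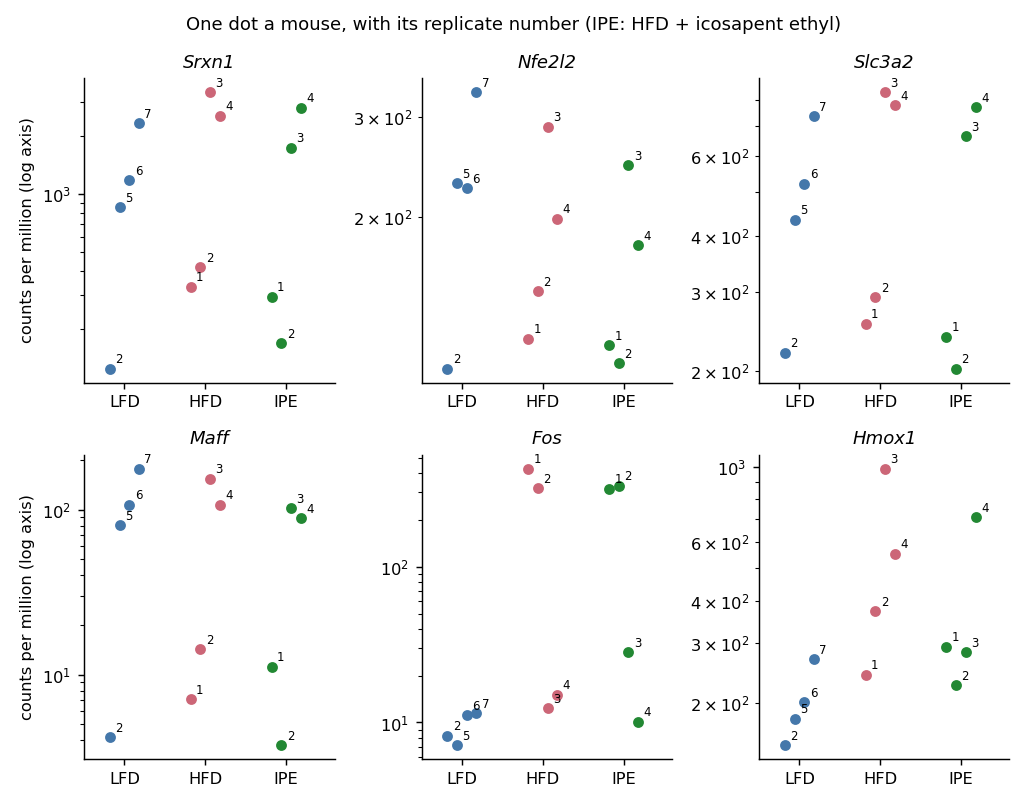
CPM of 6 genes in each mouse on a log axis, with the replicate number beside each dot. *Srxn1*, *Nfe2l2*, *Slc3a2*, and *Maff* are low in LFD replicate 2 and in replicates 1 and 2 of both other groups, *Fos* is high in the latter 4 mice but not in LFD replicate 2, and *Hmox1* is highest in HFD replicate 3.

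Start sites were compared for the motifs of the factors that act on such genes. The 250 bases before the start, in the RefSeq annotation of GRCm38.p6, were found for 32 of the 38 genes. They were searched on both strands for the core of the antioxidant response element bound by NRF2 with a small MAF protein (TGACNNNGC or TGAGNNNGC), for the AP-1 motif of FOS and JUN proteins (TGAGTCA, whose reverse complement is TGACTCA), and for the cyclic AMP response element (TGACGTCA). An AP-1 motif followed by GC is also an antioxidant response element core, so that the motifs can overlap. The core was present in 11 of the 32 genes (34.4%), against 25.7% of 27025 genes. AP-1 was present in 5 (15.6%), against 5.16%, and these were *Glrx*, *Gstp1*, *Mgst2*, *Prdx1*, and *Srxn1*. The cyclic AMP response element was present in 0 of 32, against 1.77% of all genes. A match describes letters and is not evidence that a factor binds there.

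The windows of the 2 genes past the threshold and of *Srxn1* are shown, since the former had no match to any of the 3 motifs and the latter had matches to 2 of them. They run 5′ to 3′ on the strand of the gene, and 82, 14, and 8 bases next to the start were left out because GENCODE annotates them as exon. For *Gpx3* and *Prdx4*, an earlier GENCODE start places the window inside the gene. Capitals mark the motifs. In *Srxn1*, the antioxidant response element core began 158 bases before the start, AP-1 began 102 and 45 bases before it, and the AP-1 motif at 45 was part of a further core. The regions were chr11:54902604-54902771 (*Gpx3*, plus strand), chrX:155338475-155338710 (*Prdx4*, minus strand), and chr2:152105274-152105515 (*Srxn1*, plus strand).
Gpx3: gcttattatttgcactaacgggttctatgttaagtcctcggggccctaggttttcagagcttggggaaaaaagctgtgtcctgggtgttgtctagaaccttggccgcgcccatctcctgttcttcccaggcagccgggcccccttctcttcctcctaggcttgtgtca
Prdx4: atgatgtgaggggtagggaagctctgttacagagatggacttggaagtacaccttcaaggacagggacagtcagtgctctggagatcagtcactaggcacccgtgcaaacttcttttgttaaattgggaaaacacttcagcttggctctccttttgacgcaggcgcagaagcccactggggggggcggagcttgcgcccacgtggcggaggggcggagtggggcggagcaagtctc
Srxn1: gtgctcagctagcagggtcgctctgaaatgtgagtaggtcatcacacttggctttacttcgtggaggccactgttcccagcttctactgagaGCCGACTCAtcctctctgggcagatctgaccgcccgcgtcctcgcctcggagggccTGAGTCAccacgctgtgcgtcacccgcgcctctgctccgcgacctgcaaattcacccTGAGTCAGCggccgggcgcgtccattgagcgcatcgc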

How the data were processed

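RNA of the adrenal cortex was sequenced as 1 stranded total RNA library per mouse. The authors trimmed reads with cutadapt, aligned them to GRCm38 (mm10) with STAR, and counted them per gene of GENCODE M12 with HTSeq 0.6.1p1 on the reverse strand, with a minimum mapping quality of 20. The deposited values are raw counts for 49585 genes per mouse, of which 49326 received a symbol from GENCODE M21. The methods describe paired-end libraries but single reads, which could not be settled.

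Counts were tested with edgeR 4.0.16 (R 4.3.3, limma 3.58.1) by the quasi-likelihood test, comparing 2 groups at a time, after filterByExpr with a minimum count of 10 and TMM scaling. Adjustment was by Benjamini-Hochberg over all genes, with a threshold of 0.05. DESeq2 1.42.0, other scalings and filters, a joint fit, marker covariates, and leaving out each mouse were alternatives. The macrophage and early response covariates, and leaving out the 4 mice with *Fos* above 100 CPM, were chosen after seeing the data. The HFD against LFD fit was also run on simulated counts, with the same dispersion for all genes. The planted changes were larger than those of *Gpx3* and *Prdx4*, so that the simulation does not show how well smaller changes are found.

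The genes and lists were chosen with earlier results of these data known. By rule, values in every mouse were given for genes past the threshold, *Nnt*, and the 5 further genes with the lowest unadjusted p in HFD against LFD mice, and the others by ranges. *Srxn1*, *Maff*, *Slc3a2*, and *Fos* were added after their values were seen. Pathway genes were named if past the threshold, with *Cat*, *Gpx4*, *Idh1*, *Idh2*, *Me1*, *Hmox1*, and *Txnip* besides. No 2 libraries agreed within sampling noise (lowest chi-square per degree of freedom 24.5 over 66 pairs).

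HFD and icosapent ethyl–treated mice share replicate numbers 1 to 4. Deviations from the group means correlated by 0.24, 0.116, 0.34, and 0.632 in same-numbered mice, all above 0.1, and a fit with the number as a block was therefore made. However, HFD replicates 1, 2, and 3 correlated more with icosapent ethyl replicates 2, 1, and 4 (0.598, 0.443, and 0.368). Only HFD replicate 4 correlated most with its own number. The labels state no reason for the pairing.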

Additional observations from a re-analysis of the deposited data

Results flagged for a closer look

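In 9 of 144 groups of 4 mice, 1 mouse lay far from the other 3 by Dixon's ratio of gap to range, where chance gives about 1 in 20. The flagged levels were *Prdx1* at 882 CPM in icosapent ethyl replicate 4 (others 757 to 773) and *Prdx3* at 783 CPM in LFD replicate 7 (others 620 to 629). *Mgst2* was 5.98 CPM in LFD replicate 2 (others 12.4 to 13.6). *Gsta4* was 65.8 CPM in HFD replicate 2 (others 63.0 to 63.4), and *Glrx2* was 37.2 CPM in HFD replicate 3 (others 38.8 to 38.9), both small differences in tight groups.

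Of the pathway genes, *Cat* was 181 CPM in HFD replicate 1 (others 265 to 267), and *Blvrb* was 18.8 CPM in icosapent ethyl replicate 1 (others 26.5 to 26.8). *Hmox1* was 709 CPM in icosapent ethyl replicate 4 (others 226 to 293), and *Txnip* was 699 CPM in LFD replicate 2 (others 314 to 367). What set these mice apart was not tested.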

How the results depend on the processing

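In HFD against LFD mice, the number of the 38 genes past the threshold was 2, and 2 again with no filter, a stricter filter, or all 12 mice in 1 fit. Over all genes, 230 became 1933 with DESeq2. Of the 38, it was 7 with DESeq2 or a threshold of 0.1, 1 with DESeq2's size factors or library totals, 8 with the adipocyte covariate (14.4% of all genes) or without the mice with high *Fos*, and 0 with the chromaffin, macrophage, or early response covariate. Leaving out 1 mouse gave 0 to 8, with 8 without HFD replicate 1 and 0 without each other mouse. In icosapent ethyl–treated against LFD mice, the count of 0 became 2 with DESeq2. In icosapent ethyl–treated against HFD mice it stayed 0 in all alternatives run. With the replicate block it was also 0, so that the pairing changed no call. In that fit, 2 of the 38 had an unadjusted p below 0.05, and the share of all genes is not given. LFD mice share only number 2 with the others, and no paired analysis was possible because of this.

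Directions that turned were all of genes that did not pass the threshold in that comparison. Values are not given for every such gene. In HFD against LFD mice, *Keap1* turned in 9 alternative fits, *Prdx2* in 7, *Txn1* in 6, and *Gpx8* in 5. *Prdx1* turned in 3, *Glrx2* in 2, and *Gstm1* in 1. In HFD against LFD mice, *Gpx4* was −0.0107 on the log2 scale with library totals and −0.0446 with the chromaffin covariate, *Idh2* was 0.14 with the macrophage covariate, and *Nfe2l2* was 0.175, 1.115, and 0.122 with the adipocyte covariate, the macrophage covariate, and without the mice with high *Fos*. Leaving out 1 mouse gave −0.502 to 0.00129 for *Nfe2l2* and −0.00809 to 1.203 for *Srxn1*. In icosapent ethyl–treated against HFD mice, *Gss* was 0.0207 and *Gpx3* 0.0635 with library totals. With the chromaffin covariate, *Gss* was 0.0925, *Prdx4* −0.0191, and *Glrx* −0.0496, and *Glrx* was −0.00542 without the mice with high *Fos*. Leaving out 1 mouse gave −0.0680 to 0.190 for *Glrx*, −0.0869 to 0.0447 for *Gpx3*, −0.150 to 0.0444 for *Gss*, −0.472 to 0.0675 for *Nfe2l2*, and −1.19 to 0.19 for *Srxn1*. In icosapent ethyl–treated against LFD mice, *Nfe2l2* was 0.60 with the macrophage covariate, and *Srxn1* was −0.69 with the chromaffin covariate and −0.61 to 0.81 with 1 mouse left out. The cause was not tested.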
